A study of Mus musculus with 2 samples.

Results

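The miR-302/miR-367 and miR-290 clusters are microRNA loci well known from mouse pluripotent stem cells, and 8 of their genes were measured here in the embryonic hindbrain: Mir302a, Mir302b, Mir302c, Mir302d and Mir367 on chromosome 3, and Mir291a, Mir294 and Mir295 on chromosome 7. They were chosen by gene symbol, through the GENCODE M21 annotation of the deposited gene identifiers, and make up 8 of the 1973 microRNA genes in the tables. The series holds 1 group, hindbrain tissue of healthy B6NCrl mouse embryos of both sexes at embryonic day 15.5, with no treatment and no altered allele. Replicate 2 is a pool from 62 embryos and replicate 1 a pool from 78, so each value is an average over many embryos and over all cell types of the dissected tissue. With 1 group, the comparisons open to the data are those among the members, with related genes, and between the pools.

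A microRNA is cut from a hairpin transcript and guides a silencing complex to messenger RNAs, mostly through its seed, bases 2 to 8 from the 5′ end. The miR-290 cluster is used by the early mouse embryo and by naive embryonic stem cells, and the miR-302/miR-367 cluster by the later pluripotent epiblast and primed stem cells. Their shared seed family is known for repressing inhibitors of the cell cycle and for holding back differentiation, and mouse embryos without the miR-302 genes fail to close the neural tube.

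Mature sequences from RefSeq (build GRCm38.p6) were matched to 8 of the 8 members, with 15 arms in all, and miR-302a-3p was not analysed here. The 3p arms below are shown because they define the seed groups. All of them lie on the plus strand, and capitals mark the seed.
miR-302b-3p: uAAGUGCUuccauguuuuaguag
miR-302d-3p: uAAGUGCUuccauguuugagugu
miR-302c-3p: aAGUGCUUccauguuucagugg
miR-291a-3p: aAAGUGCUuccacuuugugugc
miR-294-3p: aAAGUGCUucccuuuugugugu
miR-295-3p: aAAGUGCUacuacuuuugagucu
miR-367-3p: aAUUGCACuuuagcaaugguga
The seed AAGUGCU is carried by 5 arms listed in the RefSeq table, and all 5 belong to members (the seed of the Mir302a 3p arm was not analysed here): miR-302b-3p and miR-302d-3p from chromosome 3, and miR-291a-3p, miR-294-3p and miR-295-3p from chromosome 7. The listed miR-302c-3p shares 16 nt with miR-302b-3p but starts 1 base further along, so its seed reads AGUGCUU, which no other arm in the table has. The miR-367-3p seed, AUUGCAC, is unrelated to these and is shared with miR-25-3p, miR-32-5p, miR-363-3p, miR-92a-3p and miR-92b-3p. Between miR-302b-3p and miR-302d-3p there are 3 substitutions, U18G, A22G and G23U, counted from 1 at the 5′ end of miR-302b-3p. Likewise, 3 separate miR-291a-3p from miR-294-3p: A12C, C13U and C22U, counted from the 5′ end of miR-291a-3p. The 5p arms form groups of their own, and that of the most abundant gene is given for comparison with its neighbour's.
miR-302a-5p: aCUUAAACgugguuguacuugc
miR-302b-5p: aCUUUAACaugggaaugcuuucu
The seed of miR-302b-5p, CUUUAAC, is also that of miR-302c-5p and miR-302d-5p, while miR-302a-5p has CUUAAAC.

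The chromosome 3 hairpins are packed into 580 nt, at chr3:127545228-127545807 of mm10 (GRCm38), in the order Mir302b, Mir302c, Mir302a, Mir302d, Mir367. All 5 lie on the plus strand in an intron of Larp7, a gene on the minus strand that encodes a protein bound to 7SK RNA. The chromosome 7 cluster spans 2216 nt, at chr7:3218626-3220841, and holds 7 hairpin genes with a count, of which Mir291a, Mir294 and Mir295 are members. These 3 lie opposite to the untranslated part of an exon of Nlrp12, an innate immunity gene. None of the 8 members lies inside another gene on its own strand, and the 8 together had 0 reads on the opposite strand.

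The 4 miR-302 genes had far more reads than the miR-290 genes, of which Mir294 was low but clearly detected and Mir295 and Mir291a lay near the limit of detection. Reads on the chromosome 3 cluster came to 968 CPM (counts per 1000000 reads on the genes' own strand) in replicate 2 and 928 CPM in replicate 1, or 948 ± 28.2 CPM (SD, n = 2). The 3 chromosome 7 members came to 9.92 CPM and 10.7 CPM, or 10.3 ± 0.529 CPM (SD, n = 2). Each gene's reads were also divided by its hairpin length and then summed, with no correction for the number of genes. On this scale the 5 chromosome 3 genes stood 110 ± 8.33-fold above the 3 chromosome 7 members (SD, n = 2). The ratio was 116-fold in replicate 2 and 104-fold in replicate 1. As shares of the gene reads, the chromosome 3 cluster held 0.0968% in replicate 2 (exact 95% interval 0.0941 to 0.0996) and 0.0928% in replicate 1 (0.0899 to 0.0959). In bulk tissue, few cells with a high level and many cells with a low one cannot be told apart, so these levels say nothing of how many cells hold the microRNAs.

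**Figure D1:**
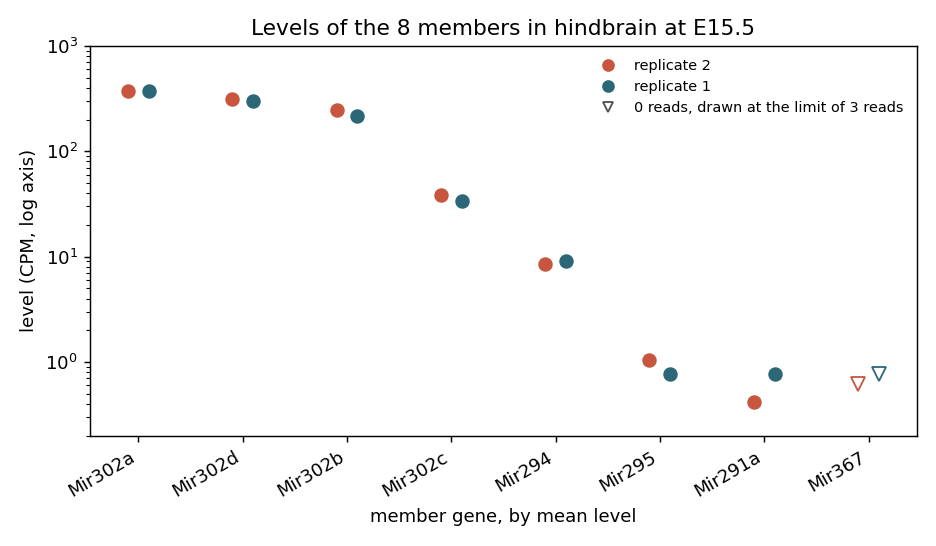
Level of each member (CPM, log axis) in replicate 2 and replicate 1, ordered by mean level. Mir302a, Mir302d and Mir302b lie between 218 and 374 CPM, Mir302c and Mir294 lie far lower, and Mir367, with 0 reads, is drawn at the limit that 3 reads set.

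Mir302a (ENSMUSG00000065552.1; 127545496 to 127545564) was the most abundant member, with 1789 reads (370 CPM) in replicate 2 and 1472 reads (374 CPM) in replicate 1. Mir302d (127545624 to 127545689) followed with 1526 reads (315 CPM) and 1193 reads (303 CPM). For Mir302b (127545228 to 127545301) there were 1185 reads (245 CPM) in replicate 2 and 858 reads (218 CPM) in replicate 1. These 3 genes stood in the same order in both pools, at rank 138, 147 and 163 of all 1973 genes by mean CPM. Mir302c (127545363 to 127545430), between Mir302b and Mir302a on the chromosome, had only 186 reads (38.4 CPM) in replicate 2 and 133 reads (33.8 CPM) in replicate 1.

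Levels between genes were also compared per 100 nt of annotated hairpin, as the hairpins run from 66 nt (Mir302d) to 84 nt (Mir294). The listed mature arms of the members are all 21 to 23 nt long, so reads need not grow with hairpin length. Whether this scale corrects the levels was not tested. Mir302a stood at 536 CPM per 100 nt in replicate 2 and 542 in replicate 1, which is 10.2 ± 1.01 times Mir302c (SD, n = 2). Mir302b exceeded Mir302c by 5.89 ± 0.0521 times on the same scale. The gap between neighbours was smaller at the top of the order, where Mir302a exceeded Mir302d by 1.15 ± 0.0416 times and Mir302d exceeded Mir302b by 1.44 times in replicate 2 and 1.56 times in replicate 1. In each of these pairs the difference in CPM had the same sign in both pools and was larger than the summed SDs of the genes, for example 54.3 CPM and 70.9 CPM between Mir302a and Mir302d against a summed SD of 11.7 CPM. The order was the same per 100 nt. An exact permutation test on 2 libraries cannot give a two-sided p below 0.33, so no p is attached to the order. It is also an order of reads and not of molecules, because a bias in ligation or alignment that both libraries share does not show in their spread.

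Mir367 (ENSMUSG00000065413.2; 127545733 to 127545807), the last hairpin of the chromosome 3 cluster, had 0 reads in replicate 2 and 0 in replicate 1. The limit that a count of 0 sets, 3 reads, equals 0.62 CPM for replicate 2 and 0.762 CPM for replicate 1, from counting error alone. With Mir367 at that limit in each library, Mir302d, whose hairpin is its next neighbour, was at least 578-fold higher per nucleotide in replicate 2 and at least 452-fold higher in replicate 1. Even Mir302c, the lowest of the 4 detected neighbours, was at least 68.4-fold higher in replicate 2 and at least 48.9-fold higher in replicate 1. As a share of the cluster's reads, the exact 95% interval for Mir367 runs up to 0.0787% in replicate 2 and 0.101% in replicate 1.

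Sharing of sequence among annotated hairpins was looked at because reads placed at several loci, 34.2% of all reads in replicate 2 and 35.4% in replicate 1, are listed apart from the genes. The longest stretch that Mir367 shares with any other of 2202 annotated microRNA hairpins is 11 nt, and miR-367-3p is found in its hairpin alone from its first 12 nt on. The M21 and RefSeq annotations place its hairpin at the same bases. By contrast, Mir302a and Mir302b share 20 nt with each other, and Mir302d and Mir302c share 17 nt and 16 nt with Mir302b. The 5′ stretch needed to tell the hairpins apart is 19 nt for miR-302b-3p, 18 nt for miR-302d-3p and 17 nt for miR-302c-3p. Shorter reads of those arms would match several loci, and the counts of Mir302b, Mir302c and Mir302d are uncertain in that direction. For Mir302a the stretch was 9 nt for miR-302a-5p, miR-302a-3p was not analysed here, and its count is uncertain through the 20 nt shared with Mir302b. Sequence outside annotated microRNA genes was not looked at.

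**Figure D2:**
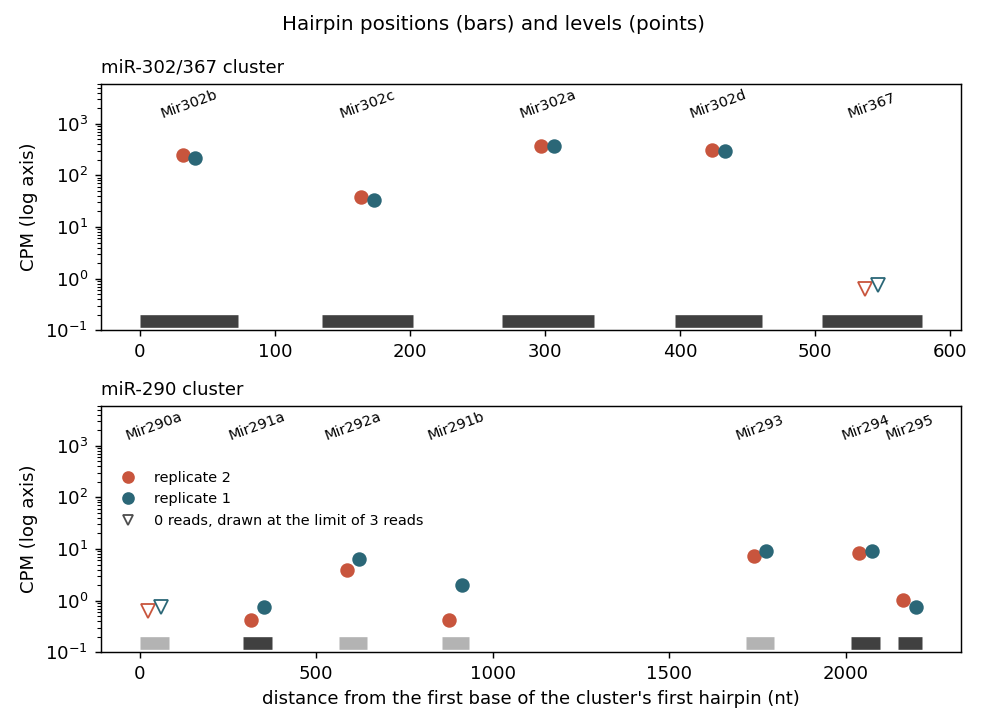
Hairpins as bars (black for members, grey for other genes of the miR-290 cluster) by distance in nt from the first hairpin's first base, with CPM on a log axis in replicate 2 and replicate 1. Levels do not follow position: Mir302c lies low between Mir302b and Mir302a, and Mir367 and Mir290a, with 0 reads, are drawn at the limit of 3 reads.

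On chromosome 7, Mir294 (ENSMUSG00000077903.1; 3220641 to 3220724) held most of the members' reads, with 41 reads (8.47 CPM) in replicate 2 and 36 reads (9.14 CPM) in replicate 1. Mir295 (3220773 to 3220841) had 5 reads in replicate 2 and 3 in replicate 1, and Mir291a (3218919 to 3219000) had 2 and 3. The Mir295 and Mir291a counts overlap and lie at or near the 3 reads that a count of 0 allows, so their order was not detectable at this depth. Mir294 carried 85.4% of the members' reads in replicate 2 (exact 95% interval 72.2 to 93.9) and 85.7% in replicate 1 (71.5 to 94.6). It lay above both other members in each pool, while Mir302c lay 5.08 ± 0.736 times above it per nucleotide (SD, n = 2).

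The other miR-290 genes measured had between 0 and 36 reads in a library. Of 6 further genes listed, 4 have a count here, and Mir290b and Mir292b were not analysed here. Mir293 had 35 reads in replicate 2 and 36 in replicate 1, close to Mir294, and Mir292a (Mir292 in M21) had 19 and 25. Mir291b had 2 and 8 reads, and Mir290a, the first hairpin of the cluster, had 0 in both pools. Over its 7 genes the cluster held 104 reads (21.5 CPM) in replicate 2 and 111 reads (28.2 CPM) in replicate 1. In reads per nucleotide summed over genes, the chromosome 3 cluster stood 53.0-fold and 38.8-fold above these 7. That ratio was not corrected for the number of genes. In the chromosome 3 cluster, Mir302a, Mir302d and Mir302b held 96.0% or more of the reads in each pool. Most of the chromosome 7 reads likewise lay on a few genes, Mir294, Mir293 and Mir292a. Their shares were 39.4%, 33.7% and 18.3% in replicate 2 and 32.4%, 32.4% and 22.5% in replicate 1.

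The composition of the chromosome 3 cluster was nearly the same in both pools. Mir302a held 38.2% of its reads in replicate 2 (exact 95% interval 36.8 to 39.6) and 40.3% in replicate 1 (38.7 to 41.9). The Mir302d share was 32.6% (31.2 to 33.9) in replicate 2 and 32.6% (31.1 to 34.2) in replicate 1. Mir302b held 25.3% (24.0 to 26.6) and 23.5% (22.1 to 24.9), and Mir302c held 3.97% (3.43 to 4.57) and 3.64% (3.05 to 4.30). For each of the 4 genes the intervals of the 2 pools overlap.

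The 5 genes nearest to Mir302a in log2 CPM over the 2 libraries were Mir760, Mir7-1, Mir376c, Mir540 and Mir3099, at distances of 0.033 to 0.11. Mir760, the nearest, had 1809 reads (374 CPM) in replicate 2 and 1502 reads (381 CPM) in replicate 1. Mir302c ranked 262 and Mir294 ranked 311 by mean CPM, against a median of 95.3 CPM among the 426 genes that reached 10 reads in 1 or both libraries. These ranks are by CPM, with no correction for length. Mir295 ranked 483 and Mir291a 525, below the 476 genes whose mean reached 1 CPM, and Mir367 was among the 1252 genes with no read in either library.

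**Figure D3:**
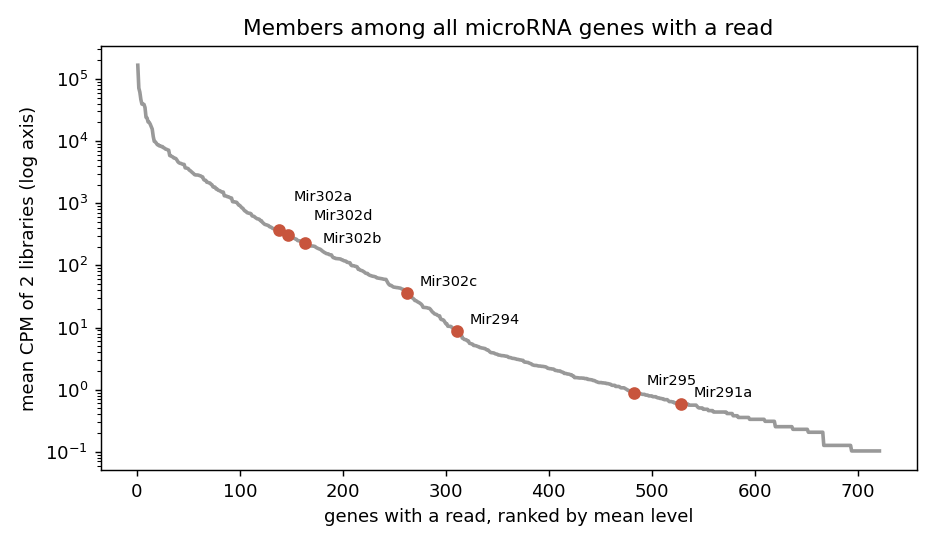
Mean CPM of the 2 libraries (log axis) for all genes with a read, in order of level (grey line), with 7 members as points. Mir302a, Mir302d and Mir302b sit together on the upper part of the curve, Mir302c and Mir294 lower, and Mir295 and Mir291a under 1 CPM.

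The members were set beside genes of other clusters that target through related bases. In miR-17-5p and its paralogues the core of the miR-302 seed lies 1 base further from the 5′ end, so the seed reads AAAGUGC. These genes are expressed in many proliferating cells.
miR-17-5p: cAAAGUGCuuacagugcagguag
miR-93-5p: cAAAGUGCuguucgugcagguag
The longest stretch that miR-17-5p shares is 8 nt with miR-302b-3p and 9 nt with miR-294-3p. Mir17 had 79526 reads (16432 CPM) in replicate 2 and 70805 reads (17981 CPM) in replicate 1, which is 38.0 ± 2.12 times Mir302a per nucleotide (SD, n = 2). Mir93 had 7586 CPM and 8709 CPM. Together the 6 genes with that seed (Mir17, Mir20a, Mir20b, Mir93, Mir106a and Mir106b) came to 35352 CPM in replicate 2 and 38403 CPM in replicate 1. Their summed reads per nucleotide, not corrected for the number of genes, were 30.8 ± 2.63 times those of the chromosome 3 cluster. Not all of the 6 were higher than the miR-302 genes. Mir106a had 415 CPM per 100 nt in replicate 2 and 397 in replicate 1, and Mir20b had 203 and 214, both below Mir302a and Mir302d in each pool. Mir18a, listed with these genes, has the different seed AAGGUGC and was left out of the sum.

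Genes of other clusters that carry the miR-367 seed on 1 arm were detected, though their counts do not separate the arms. Mir92b had 3370 CPM in replicate 2 and 3945 CPM in replicate 1, Mir25 had 263 CPM and 269 CPM, and Mir363 had 240 CPM and 238 CPM.
miR-92b-3p: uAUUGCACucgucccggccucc
miR-25-3p: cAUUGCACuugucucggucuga
Mir32 had 132 CPM and 134 CPM. Reads of miR-92a-3p, which is listed at both Mir92a-1 (1014 CPM and 1093 CPM) and Mir92a-2 (51.7 CPM and 46.5 CPM), can match both loci, and the counts of these 2 genes are uncertain. In sum the 6 genes came to 5397 ± 462 CPM (SD, n = 2), against 0 reads for Mir367. Mir92a-2, the lowest of them, was at least 68.7-fold above Mir367 per nucleotide in replicate 2 and at least 50.3-fold in replicate 1.

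**Figure D4:**
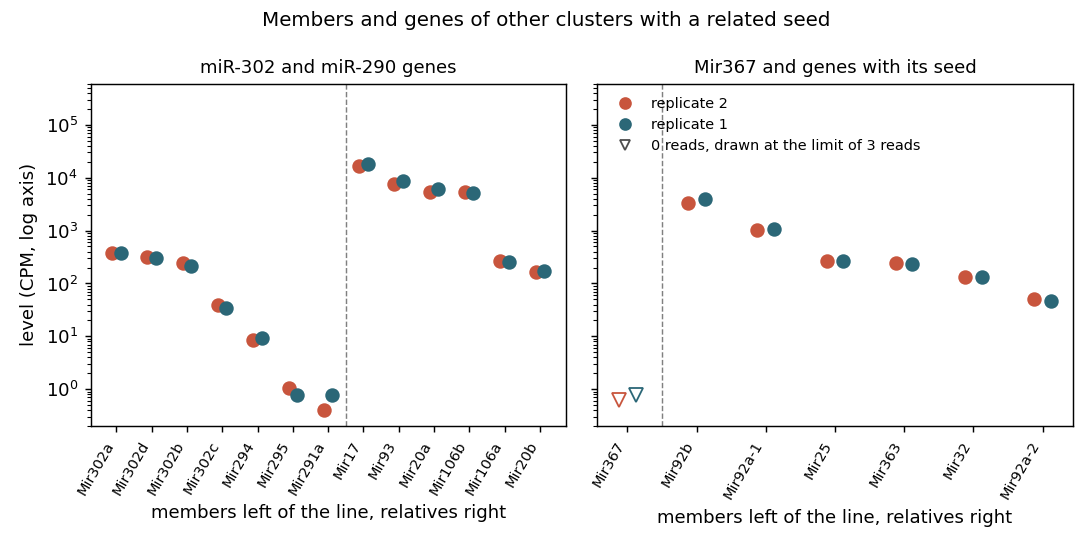
Levels (CPM, log axis) of the members left of the dashed line and of genes with a related seed right of it, in replicate 2 and replicate 1. Mir17, Mir93, Mir20a and Mir106b lie above every member, Mir106a and Mir20b among the miR-302 genes, and all 6 genes with the seed of Mir367 lie far above it.

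The pools were compared to see how far the members vary between biological replicates of this tissue. Of the 8 members, 5 had at least 10 reads in a library and were tested, and 0 of the 5 passed an adjusted p of 0.05 between the pools in the exact binomial test. Over all 426 genes tested, 153 were called, or 35.9%, 65 of them higher and 88 lower in replicate 2. At an unadjusted p under 0.05, 1 of the 5 members passed. The share of all genes at that unadjusted level is not given here. With 1 library a side, the binomial test compares the libraries as such and allows for counting error alone. An exact test of edgeR was also run with a biological coefficient of variation set to 0.1. At an adjusted p under 0.05 it called 0 members and 1.41% of all genes. It gave 0 members an unadjusted p under 0.05.

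Mir302b was the member closest to the threshold. Its 1185 reads in replicate 2 and 858 in replicate 1 gave a ratio of 1.11 (exact 95% interval 1.02 to 1.21) and, by the exact binomial test, an adjusted p of 0.0524. That call depends on the settings: under the 5 alternative binomial settings the adjusted p ran from 0.0267 to 0.0397, below the threshold in all 5, and under edgeR's exact test with an assumed coefficient of variation it did not pass. Mir302d had a log2 ratio of 0.04 (-0.07 to 0.15) and Mir302a one of -0.03 (-0.13 to 0.07). On the linear scale the Mir302a interval runs from 0.912 to 1.05. Mir302c had a log2 ratio of 0.17 (-0.16 to 0.50), and Mir294 one of -0.13 (-0.81 to 0.56). The Mir294 interval is wide, with ratios from 0.571 to 1.47, because it rests on few reads. Mir295 and Mir291a were not tested, and Mir367 has no ratio.

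**Figure D5:**
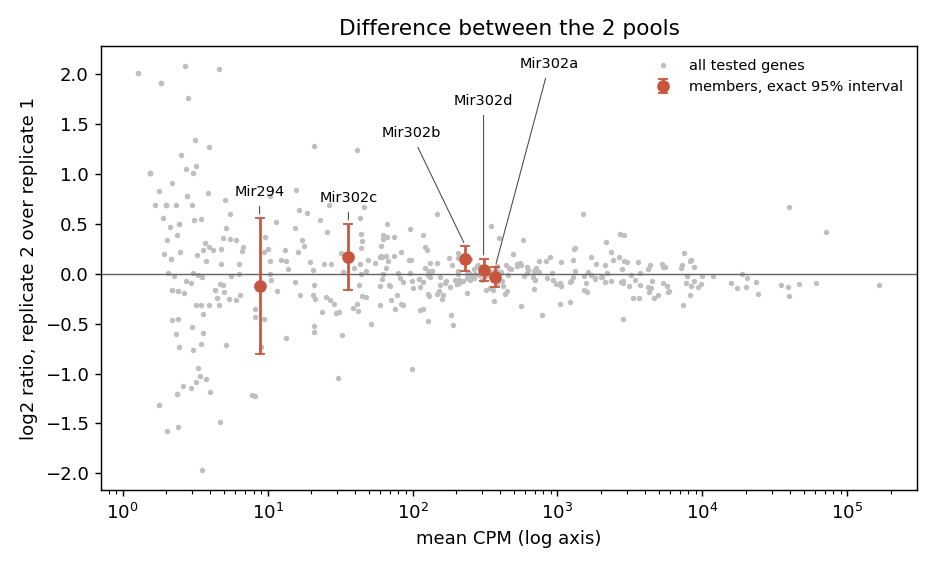
Log2 ratio of replicate 2 over replicate 1 against mean CPM (log axis) for all 426 tested genes (grey) and the 5 tested members with exact 95% intervals. Mir302a, Mir302d and Mir302b lie within 0.16 of 0, and the intervals widen toward Mir302c and Mir294.

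The median log2 ratio of the 5 tested members was 0.04, beside -0.01 over all tested genes, and the median size of the ratio regardless of sign was 0.13 for the members and 0.17 for all. Some related genes outside the clusters were called. Of the 6 with the seed of Mir17, 3 were called lower in replicate 2 (Mir17, Mir20a and Mir93) and 1 higher (Mir106b). Of the 6 with the seed of Mir367, 2 were called lower (Mir92a-1 and Mir92b). Over all tested genes the share called was 35.9%. Calls depend on read number: Mir106b, with 26442 and 20332 reads, was called at a log2 ratio of 0.06. With the settings reported, Mir302b was not called at 0.15. The log2 ratio of Mir17 was -0.15, from 79526 reads in replicate 2 and 70805 in replicate 1. Of the other miR-290 genes 2 were tested, Mir293 and Mir292a, and 0 were called.

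The libraries held 4839647 reads on the genes' own strand in replicate 2 and 3937840 in replicate 1. Listed brain microRNAs summed to 37237 CPM in replicate 2 and 36035 CPM in replicate 1, led by Mir149 and Mir137. Of 12 genes listed, 11 were measured and 8 had 10 or more reads in both pools. Mir124a-1, Mir124a-2, Mir124a-3 and Mir9-2 were low, at mean levels of 1.90 to 3.95 CPM. Each of these has further copies among the listed genes, and reads that match several loci are left out of the counts. Their counts are therefore uncertain and need not give the level of the mature microRNA. How far this lowered them, and the brain sum, was not tested. The Hox cluster microRNAs, which mark position along the head-to-tail axis, summed to 132296 CPM and 92090 CPM, so replicate 2 stood higher in them. The chromosome 3 cluster had 968 CPM in replicate 2 and 928 CPM in replicate 1. For the chromosome 7 members the sums were 9.92 CPM and 10.7 CPM. Blood microRNAs, with 4 of 5 genes measured, summed to 356 CPM and 480 CPM. The part of these marker differences in the members' ratios was not tested. Of 13 X-linked microRNAs known from the germ line, 1 (Mir741, with 9 and 5 reads) had reads in both pools, and they summed to 2.07 CPM and 2.29 CPM. Mir463, Mir471, Mir742, Mir871, Mir880, Mir881, Mir883a and Mir883b had 0 reads in both.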

How the data were processed

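MicroRNA libraries (RNA size range below 30 per the labels, unit not given) were made from 2 pools of hindbrains. The authors deposited raw read counts per gene on mm10 with GENCODE M4, per notes that accompany the deposited tables. For the aligner and the counting tool, a name is not given in the sources used here. A gene row counts both strands, the gene's own strand (taken as the single-strand column with the larger total, and used here) and the opposite strand. 5p and 3p arms are not separated. Library sizes leave out the rows without a gene: reads at several loci (34.2% of all reads in replicate 2, 35.4% in replicate 1), unmapped (15.8%, 13.7%) and outside genes (2.96%, 2.56%).

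Symbols came from GENCODE M21 (1894 of 1973 identifiers). The members, lists and the naming rule (the members, their cluster and seed relatives, and the 5 genes nearest Mir302a in level) were chosen with earlier results of these data known. CPM uses the own-strand total. Pools were compared with TMM scaling in edgeR 4.0.16 (R 4.3.3) and an exact two-sided conditional binomial test (scipy 1.17.1), with Benjamini-Hochberg adjustment over the 426 genes that reached 10 reads in 1 or both libraries and a threshold of 0.05. The test was tested on simulated data that held counting error alone, with no variation between pools beyond it. Shares have exact Clopper-Pearson 95% intervals. Reads carry no molecular identifiers here, so intervals and floors cover counting error only. Alternatives were DESeq2 1.42.0 size factors, total counts, minimums of 1 and 20 reads, both strands, all reads as the denominator, edgeR's exact test at assumed coefficients of variation of 0.1 and 0.2, and, added after seeing the data, levels per 100 nt of hairpin.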

Additional observations from a re-analysis of the deposited data

How the results depend on the processing

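The count of members that differ between the pools changed by 1 gene. It was 0 with the settings reported and 1, Mir302b, with DESeq2 size factors, total counts, a minimum of 1 read, a minimum of 20 reads or both strands together, all by the exact binomial test, and 0 again with edgeR's exact test at a coefficient of variation of 0.1 or 0.2, where 0 members had an unadjusted p under 0.05. Over all genes, 153 were called as reported and 6 at the coefficient of variation of 0.1. For Mir302b the log2 ratio was 0.15 as reported and 0.16 to 0.18 under those 5 binomial settings. All reads as the denominator gave 442 CPM for the chromosome 3 cluster and 4.81 CPM for the chromosome 7 members. Per 100 nt of hairpin the sums were 1373 CPM and 12.5 CPM, and every gene of the miR-290 cluster with counts together gave 24.8 CPM. Single libraries gave 928 to 968 CPM for the chromosome 3 cluster, 9.92 to 10.7 CPM for the chromosome 7 members, 38.2% to 40.3% for Mir302a's share and 85.4% to 85.7% for Mir294's. No log2 ratio of a member changed sign under an alternative. Adding 1 read in place of 0.5 was not run, since the one member at 0 is at 0 in both libraries. No paired analysis was possible because the series has 1 group. Depth limits Mir291a, Mir295 and Mir367 most, with 5 reads or fewer in each library.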
